A study of Rattus with 9 samples.

Results

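Marker genes of Kupffer cells and other macrophages were followed in the livers of rats of the outbred Sprague-Dawley stock. The markers are Marco, Cd163, Clec4f, Adgre1, Csf1r, Cd68, Lyz2, C1qa, C1qb and C1qc, taken as the rows of the expression table that carry these gene names. All 10 were found among 20236 genes, and all 10 were among the 11078 genes tested. Poly(A) RNA was sequenced in 9 liver libraries, 3 each from a group labelled normal control, a group labelled model and a group labelled pomegranate-high, with 8 weeks given as the length of administration. Pomegranate as a treatment of hyperlipidemia, in which blood lipids are raised, is the subject of the series. How the model was induced, what was given as pomegranate and at which dose, and the age and sex of the rats are not among the labels. Nothing in them ties a library to 1 animal, and p-values here therefore measure the spread between libraries. Titles start with SG in the model arm and with M in the pomegranate-high arm, which the labels leave unexplained. Every direction below follows the group field. If that field had the model and pomegranate-high arms exchanged, every difference between them would turn and their differences from control would trade places.

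Kupffer cells are the resident macrophages of the liver. They line the sinusoids, take up particles, bacteria, modified lipoproteins and aged red blood cells from portal blood, and depend on signalling through the receptor Csf1r. Macrophages that enter the liver from blood monocytes share part of this gene set but express less of the resident scavenger receptors. In whole liver tissue these genes report a minor cell population against a background of hepatocyte RNA, and fewer cells of a type and less RNA per cell cannot be told apart.

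Depths were 13678658 to 17966670 reads per library. The 10 markers rested on 48 to 7163 reads per gene and library. A floor of 3 reads corresponded to at most 0.209 FPKM for any of them, FPKM being fragments scaled to gene length and to the library total. Hepatocyte markers were high in every library, with albumin at 4.85% to 10.05% of all reads. Model replicate 1 and pomegranate-high replicates 1 and 2 stood apart by the reads they held on genes of the mitochondrial genome, 14.5%, 9.62% and 11.4% of the total, against 4.17% to 6.40% in the other libraries. For the results below that moved most when these libraries were left out, values without them are given as well.

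In build Rnor_6.0, as the table gives it, the scavenger receptor genes Marco and Cd163 lie on chromosome 16 (85115201 to 85135859, minus strand) and chromosome 4 (156752082 to 156785467, plus strand). Clec4f lies on chromosome 4 as well, at 115322291 to 115332052 on the minus strand. Csf1r is at 56414488 to 56458300 on the plus strand of chromosome 18, and Adgre1 at 9431860 to 9585865 on the minus strand of chromosome 9. Cd68 is at 56268720 to 56270640 on chromosome 10 and Lyz2 at 60335969 to 60341264 on chromosome 7, both on the minus strand. The deposited protein families are scavenger receptor cysteine-rich domains for Marco and Cd163, a C-type lectin domain for Clec4f, a tyrosine kinase for Csf1r and a C1q domain for the C1q genes.

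In normal control liver the C1q genes and Clec4f were the highest of the markers and Adgre1 the lowest. On the FPKM scale, which is per gene length, C1qa stood at 142 ± 32.7 (SD, n = 3), C1qc at 113 ± 42.1, Clec4f at 108 ± 52.1 and C1qb at 86.2 ± 34.95. These neighbours did not differ beyond their spread. Below all C1qb values came Marco at 36.2 ± 15.5 FPKM, followed by Cd68 at 28.8 ± 10.5, Lyz2 at 21.8 ± 9.69 and Csf1r at 16.7 ± 2.82, again with overlapping libraries from each gene to the next. Cd163 at 9.97 ± 1.22 FPKM lay below all Csf1r values, and Adgre1 at 4.57 ± 0.459 FPKM lay below all Cd163 values.

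The resident scavenger and lectin receptors had their lowest values in the model livers, and none of their differences between groups passed the test. Marco, a class A scavenger receptor that binds bacteria and particles, had 18.3, 44.6 and 45.7 FPKM in the controls, 3.77, 11.7 and 18.2 in the model libraries, and 31.4, 11.4 and 26.6 in the pomegranate-high libraries. The model libraries lay below all controls, the highest of them just below the lowest control. Its log2 difference between model and control was −1.71 ± 0.56 (SE, adjusted p = 0.999), and between pomegranate-high and model 1.08 ± 0.56 (adjusted p = 0.610). Log2 differences are on the scale of log2(FPKM + 1), and the adjusted p is that of limma with Benjamini-Hochberg adjustment over all 11078 genes, called at 0.05. Without model replicate 1 the differences were −1.14 and 0.51, and over all alternatives the latter was as low as 0.27.

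Cd163, the receptor for complexes of haptoglobin and haemoglobin and the antigen of the rat antibody ED2, had 9.57, 9.00 and 11.3 FPKM in the controls. The model libraries had 2.76, 7.33 and 5.49 FPKM, and the pomegranate-high libraries 6.98, 3.18 and 7.78. Cd163 was the one marker whose 3 controls lay above every other library of both arms. The log2 difference from control was −0.89 ± 0.35 for the model arm (adjusted p = 0.999) and −0.72 ± 0.35 for the pomegranate-high arm (adjusted p = 0.519), neither of which passed. Both comparisons use the same controls, so they are not independent. Without the 3 libraries of high mitochondrial share (the 3 named above) the values were −0.57 and −0.31.

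Clec4f, a galactose-binding C-type lectin that in rodents is confined to Kupffer cells, had 79.2, 76.3 and 168 FPKM in the controls. It had 35.4, 79.0 and 68.5 FPKM in the model libraries and 227, 49.9 and 95.6 in the pomegranate-high libraries. All 3 groups overlapped. The log2 difference between pomegranate-high and control was 0.03 with a 95% interval of −1.17 to 1.23, which is wide enough to hold a doubling or a halving. Between model and control it was −0.79, and −0.45 without model replicate 1. Between pomegranate-high and model it was 0.82, and 0.26 without pomegranate-high replicate 1.

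The receptor kinase Csf1r, the adhesion receptor Adgre1 and the lysosomal glycoprotein Cd68 mark macrophages in general. Csf1r, which binds the growth factors Csf1 and Il34, had 15.1, 15.1 and 20.0 FPKM in the controls, 4.41, 11.5 and 12.0 in the model libraries, and 24.2, 14.0 and 14.7 in the pomegranate-high libraries. The model libraries lay below all libraries of both other groups. The log2 difference was −0.88 ± 0.36 between model and control (adjusted p = 0.999) and 0.92 ± 0.36 between pomegranate-high and model (adjusted p = 0.525). Between pomegranate-high and control it was 0.04, with a 95% interval of −0.75 to 0.83. The differences between model and control and between pomegranate-high and model were −0.47 and 0.51 without model replicate 1, and without the 3 libraries of high mitochondrial share the latter was 0.30.

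Adgre1, the gene of the F4/80 antigen in mouse, had 4.66, 4.07 and 4.97 FPKM in the controls, 1.07, 2.97 and 3.14 in the model libraries, and 8.32, 3.35 and 5.53 in the pomegranate-high libraries. Its model libraries too lay below all 6 others. The log2 difference was −0.78 ± 0.33 between model and control (adjusted p = 0.999) and 0.99 ± 0.33 between pomegranate-high and model (adjusted p = 0.480). They were −0.45 and 0.66 without model replicate 1, and with library quality weights the latter was 0.56. The deposited annotation gives an E2 adhesion receptor as the best protein match of this row, so its identity within that family is less certain than that of the other markers.

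Cd68, the antigen of the rat antibody ED1, had 23.1, 22.3 and 40.9 FPKM in the controls and 9.60, 23.4 and 20.0 in the model libraries. In the pomegranate-high libraries it had 87.4, 58.7 and 26.0 FPKM, all above the model libraries. The log2 difference between pomegranate-high and model was 1.57 ± 0.46 (adjusted p = 0.478), and between pomegranate-high and control 0.87 ± 0.46 (adjusted p = 0.539). Without the 3 libraries of high mitochondrial share, which leaves pomegranate-high replicate 3 alone in its group, these were 0.26 and −0.085. Neither difference passed with or without them.

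Lyz2, which encodes the bactericidal enzyme lysozyme of macrophages, monocytes and granulocytes, followed another pattern. It had 15.9, 16.6 and 33.0 FPKM in the controls, 23.1, 41.1 and 20.5 in the model libraries, and 88.8, 181 and 53.3 in the pomegranate-high libraries. All 3 pomegranate-high libraries lay above all 6 others, and the model and control libraries overlapped. The mean in the pomegranate-high arm was 4.93 times that of the controls and 3.81 times that of the model arm. The log2 difference from control was 2.15 ± 0.46 (adjusted p = 0.285), and 0.253% of all tested genes had a smaller unadjusted p in this comparison. The log2 difference from model was 1.78 ± 0.46 (adjusted p = 0.478).

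Lyz2 did not pass in either comparison with all libraries. Without pomegranate-high replicate 3 its log2 difference from control was 2.56 and passed (adjusted p = 0.0311), in a fit that called 328 of 11078 genes, or 2.96%. Over all 20 alternatives the adjusted p ran from 0.0311 to 0.858. Without the 3 libraries of high mitochondrial share the log2 difference was 1.33 from control and 0.85 from model. Lysozyme genes form a family of related copies, so reads of Lyz2 may be shared with them.

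**Figure D1:**
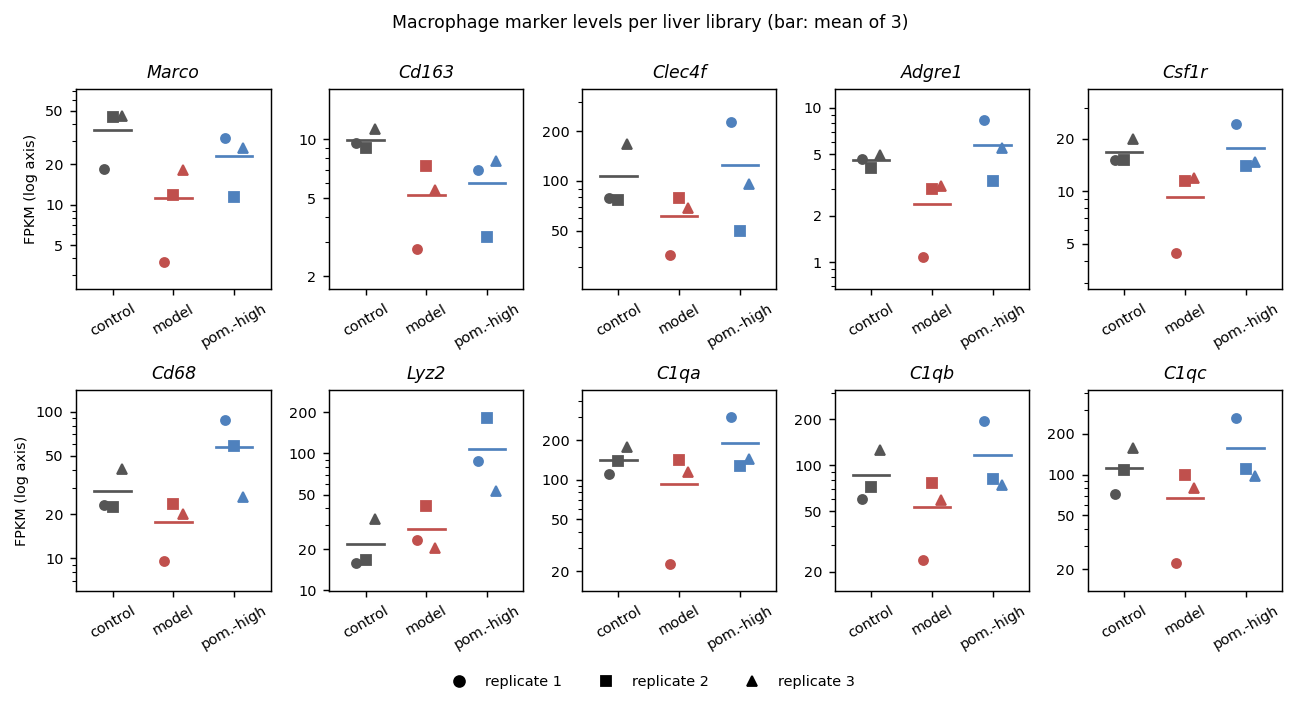
FPKM of the 10 markers on log axes in normal control (grey), model (red) and pomegranate-high (blue, pom.-high) livers, with 1 symbol per library and a bar at the mean of 3. Model replicate 1 is the lowest library for 9 markers, Lyz2 in the pomegranate-high libraries (53.3 to 181 FPKM) lies above all others, and Cd163 is highest in the 3 controls (9.00 to 11.3 FPKM).

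C1qa, C1qb and C1qc encode the chains of C1q, the recognition molecule of the classical complement pathway, which in liver is made mainly by macrophages. The genes lie side by side on the minus strand of chromosome 5, from 155246447 to 155264143 in build Rnor_6.0, a span of 17697 bp that holds no other gene of the table. C1qa had 111, 138 and 176 FPKM in the controls, 22.7, 142 and 114 in the model libraries, and 300.5, 127 and 144 in the pomegranate-high libraries. The values of C1qb were 60.5, 72.1 and 126 FPKM in the controls, 24.1, 76.7 and 59.0 in the model libraries and 194, 81.7 and 74.3 in the pomegranate-high libraries. Those of C1qc were 72.4, 109 and 156 FPKM, 22.3, 98.8 and 80.1, and 262, 111 and 98.4.

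For each C1q gene, model replicate 1 was the lowest and pomegranate-high replicate 1 the highest of all libraries, and the other 7 libraries of all 3 groups overlapped. The log2 differences between model and control were −0.94 for C1qa, −0.76 for C1qb and −0.92 for C1qc, and without model replicate 1 they were −0.13, −0.28 and −0.27. Between pomegranate-high and control they were 0.34, 0.36 and 0.40, and without pomegranate-high replicate 1 they were −0.048, −0.072 and −0.040. None passed in any of these fits. Between pomegranate-high and model the differences were 1.28 for C1qa, 1.13 for C1qb and 1.32 for C1qc. Without model replicate 1 these were 0.47, 0.64 and 0.67, and their lowest values over all alternatives were 0.18, 0.14 and 0.14.

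In the first comparison the model arm was set against normal control. Of the 10 markers 9 were lower and Lyz2 was higher, with a median log2 difference of −0.83 against −0.03 over all genes tested, of which 54.1% were lower and 45.9% higher. None of the 10 passed by limma, where 0.00903% of all genes did. At an unadjusted p under 0.05 there were 4 (Marco, Cd163, Adgre1 and Csf1r), all lower, beside 1.78% of all genes. By voom, limma's model for counts, on reads recovered from the FPKM steps, 0 passed and 4 had an unadjusted p under 0.05. In the same 4 markers every model library lay below every control, as in 4.82% of all genes. Model replicate 1 was the lowest of all 9 libraries for 9 markers, and without it the median log2 difference was −0.39, still with 9 of 10 lower. The number at an unadjusted p under 0.05 was 1 without model replicate 1, control replicate 1 or control replicate 3, and 2 without control replicate 2. Model replicate 1 also had the highest mitochondrial share, 14.5%. Pomegranate-high replicate 1, at 9.62%, was the highest of all libraries for 7 markers. The part of that share in these values was not tested.

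In the second comparison, of the pomegranate-high arm with the model arm, all 10 markers had higher values, with a median log2 difference of 1.10 against 0.09 over all genes. Of all genes tested 61% were higher. None of the markers passed by limma, where 0.00903% of all genes did. At an unadjusted p under 0.05 there were 6 (Adgre1, Csf1r, Cd68, Lyz2, C1qb and C1qc), all higher, beside 7.12% of all genes, and voom gave 0 and 6. For Adgre1, Csf1r, Cd68 and Lyz2 every pomegranate-high library lay above every model library, as in 8.78% of all genes. This comparison shares its model libraries with the first. Without model replicate 1 the median was 0.58 with 9 of 10 higher, Cd163 being the exception, and without the 3 libraries of high mitochondrial share it was 0.28. With library quality weights it was 0.56, again with 9 higher. The number at an unadjusted p under 0.05 was 2 without model replicate 1 or pomegranate-high replicate 1 and with quality weights, 1 without the 3 libraries, and 4 without control replicate 2.

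The third comparison set the pomegranate-high arm against normal control livers. Of the markers 8 had higher values and 2, Marco and Cd163, lower values, with a median log2 difference of 0.27 against 0.07 over all genes, 57.4% of which were higher and 42.6% lower. None passed by limma, where 0.0181% of all genes did. At an unadjusted p under 0.05 there was 1, Lyz2, beside 7.24% of all genes that were so and higher, and voom gave 0 and 1. That number was 3 without pomegranate-high replicate 3 and with library quality weights, and 2 without model replicate 1, with median-of-ratios or quantile scaling and with the 2 groups alone. Lyz2 was also the one marker with all 3 pomegranate-high libraries above all controls, as in 12.4% of all genes, and Cd163 the one with all 3 below, as in 3.66%. The balance of the other markers rested on pomegranate-high replicate 1, the highest of all libraries for 7 of the 10. Without it 2 were higher and 8 lower, with a median of −0.07. Without the 3 libraries of high mitochondrial share 3 were higher and 7 lower, with a median of −0.10. The median was 0.13 without control replicate 1 and 0.21 without control replicate 2, and in both cases, as with TPM, median-of-ratios or quantile scaling and with quality weights, 6 were higher and 4 lower. Without control replicate 3 the median was 0.45, and without pomegranate-high replicate 2 it was 0.55, both with 8 higher.

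**Figure D2:**
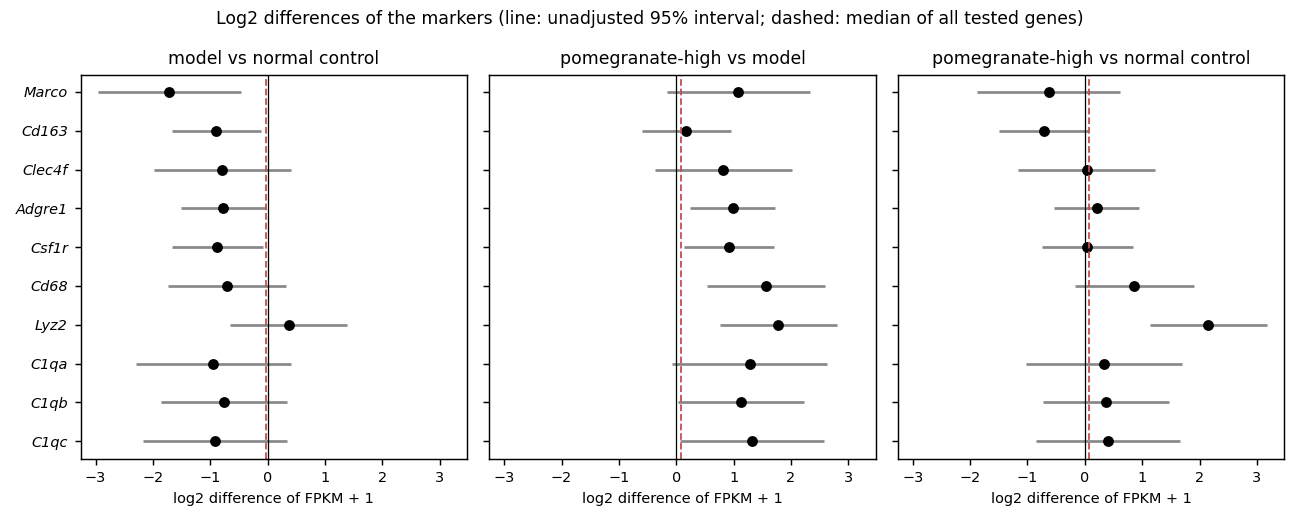
Log2 differences of FPKM + 1 of the 10 markers in the 3 comparisons, with unadjusted 95% intervals as lines and the median of all tested genes as a dashed line. Marco lies farthest to the left in the comparison of model with control (−1.71), and Lyz2 farthest to the right in both comparisons of the pomegranate-high arm (1.78 and 2.15).

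Because the markers shared their low and high libraries, each was also divided by the geometric mean FPKM of C1qa, C1qb and C1qc in the same library. That mean was 78.8, 103 and 152 FPKM in the controls, 23.0, 102 and 81.3 in the model libraries and 248, 105 and 102 in the pomegranate-high libraries. The ratio of Csf1r to C1q stayed between 0.0976 and 0.192 over all 9 libraries, a range of 1.97 times, and that of Adgre1 within 2.04 times. The ratio of Lyz2 to C1q varied most, by 10.7 times.

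Lyz2 relative to C1q was 0.201, 0.162 and 0.218 in the controls. It was 1.00, 0.402 and 0.252 in the model libraries and 0.358, 1.73 and 0.524 in the pomegranate-high libraries. All 6 libraries of both arms thus lay above all 3 controls. The FPKM of Lyz2 itself overlapped between model and control (20.5 to 41.1 against 15.9 to 33.0). The ratio of 1.00 in model replicate 1 stands over the lowest C1q mean, 23.0 FPKM. Marco relative to C1q was 0.233, 0.434 and 0.302 in the controls and 0.164, 0.114 and 0.224 in the model libraries, which all lay below them. In the pomegranate-high libraries it was 0.126, 0.109 and 0.262, overlapping both other groups. Cd163 relative to C1q was 0.0281 and 0.0304 in pomegranate-high replicates 1 and 2, and 0.0675 to 0.121 in the other 7 libraries. These ratios are given as a description without a test. The share of all genes that would separate likewise after division by C1q was not counted.

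**Figure D3:**
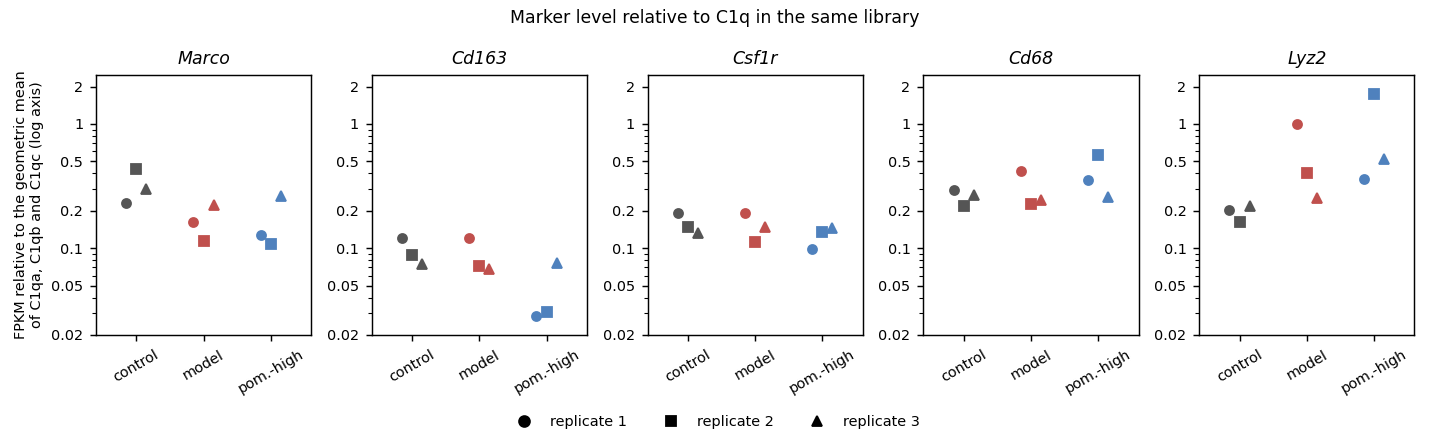
FPKM of 5 markers divided by the geometric mean FPKM of C1qa, C1qb and C1qc in the same library, on a log axis, with 1 symbol per library. Csf1r stays within 0.0976 to 0.192 in all groups, Lyz2 lies at 0.162 to 0.218 in the controls and at 0.252 or more in every other library, and Cd163 is lowest in pomegranate-high replicates 1 and 2.

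The markers varied together over the 9 libraries, with Lyz2 and Cd163 least tied to the rest. Over the 45 pairs of markers, the median Pearson's r of log2(FPKM + 1) was 0.80, and 28 pairs had an adjusted p below 0.05 (exact permutation over all pairings, two-sided, Benjamini-Hochberg adjustment over 45 pairs). By Spearman's rho 10 pairs did. All points share the scaling by library total, and the markers were chosen as genes of 1 cell lineage. C1qb and C1qc were the most alike (r = 0.99, exact permutation p = 5.79e-05, adjusted p = 0.00182, rho = 0.93, exact permutation p = 0.00075, adjusted p = 0.0169). The 2 farthest libraries of a pair are those farthest from the median of 1 of its genes, the one that comes first in the opening list of markers. Without them the r of C1qb and C1qc was 0.96, and without the 3 libraries of high mitochondrial share it was 0.96. The pairs of C1qa with C1qb and with C1qc likewise stayed at 0.91 and 0.91, and at 0.95 and 0.97.

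Adgre1 and Csf1r had r = 0.95 (exact permutation p = 0.000284, adjusted p = 0.00319, rho = 0.90, exact permutation p = 0.00203, adjusted p = 0.0304), which was 0.76 without the 2 farthest libraries. Cd163 passed with Marco alone (r = 0.83, exact permutation p = 0.00471, adjusted p = 0.0125, rho = 0.80, exact permutation p = 0.0138, adjusted p = 0.0566), and r was 0.57 without the 2 farthest libraries. Lyz2 passed with Cd68 alone (r = 0.74, exact permutation p = 0.0235, adjusted p = 0.0391, rho = 0.77, exact permutation p = 0.0214, adjusted p = 0.0642), and r was 0.33 without the 2 farthest libraries. These were picked by their Cd68 values, which narrows the range, so the lower r cannot show what the relation rested on. With group means subtracted r was 0.64. With Cd163 the r of Lyz2 was −0.37 and with Marco −0.06, neither of which passed (adjusted p = 0.374 and 0.870, exact permutation p = 0.333 and 0.870). Without the 2 farthest libraries of each pair the median r of the 45 pairs was 0.38 and 0 pairs passed (smallest adjusted p = 0.0625, exact permutation over 7 libraries). Without the 3 libraries of high mitochondrial share it was 0.61 with 0 pairs passing (smallest adjusted p = 0.125, exact permutation over 6 libraries). The smallest possible exact permutation p is 0.000198 over 7 libraries and 0.00139 over 6. Counts of 0 there cannot show that the relations were absent. With group means subtracted in all 9 libraries the median r was 0.78, and 30 pairs passed, or 23 by Spearman's rho. The permutation did not allow for the subtracted means.

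**Figure D4:**
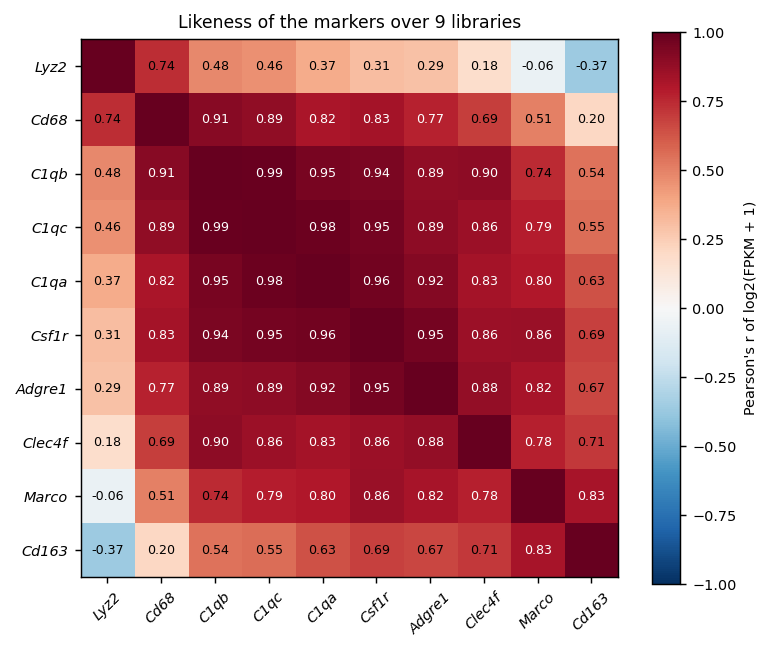
Pearson's r of log2(FPKM + 1) over 9 libraries for every pair of the 10 markers, from blue (−1) to red (1). The 3 C1q genes lie at 0.95 to 0.99 with each other, and Lyz2 has its lowest values with Marco (−0.06) and Cd163 (−0.37).

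The 8 genes outside the markers whose pattern was most like the mean of their standardised values included Cfp, which encodes properdin, a stabiliser of the alternative complement pathway (r = 0.99 over 9 libraries). The others were Acbd6, Cd300a, an inhibitory receptor of myeloid cells, and Eef1d (each 0.98), and Psmb3, Coprs, Angptl6 and Atp5g3 (each 0.97). Each of these 8 was lowest in model replicate 1 and highest in pomegranate-high replicate 1. The markers' own median had the same extremes (−1.62 and 1.13 relative to the control mean). Because the 8 were picked for likeness to the markers, their high r and these shared extremes follow largely from the selection. Cfp ranged from 9.55 to 80.7 FPKM and Cd300a from 1.64 to 15.04 FPKM, while Psmb3, a proteasome subunit, ranged from 54.5 to 102 FPKM.

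Other Kupffer cell and macrophage genes were described from a list of 27, of which 26 matched and 24 were tested. Of these 24, 20 were lower in the model arm than in control (median log2 difference −0.34, 0 passing, 2 at an unadjusted p under 0.05), beside 54.1% of all genes lower and 1.78% lower at that p. Of the 24, 15 were lower without model replicate 1, with a median of −0.07. The mannose receptor gene Mrc1 had 9.72, 7.12 and 7.16 FPKM in the controls and 2.79, 4.53 and 3.56 in the model libraries (−0.96 ± 0.21, adjusted p = 0.999). Stab1, a scavenger receptor that endothelium shares with macrophages, had 6.20, 9.43 and 10.7 FPKM and 2.13, 5.90 and 3.15 (−1.10 ± 0.37). For both, every model library lay below every control.

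Between pomegranate-high and model 21 of the 24 had higher values (median 0.87, 0 passing, 16 at an unadjusted p under 0.05), beside 61% of all genes higher and 7.12% higher at that p. Without model replicate 1, 20 were higher, with a median of 0.59 and 8 at that p. Leaving out the 3 libraries of high mitochondrial share gave 21 higher, with a median of 0.17 and 0 at that p. Cybb, the catalytic subunit of the phagocyte oxidase, had 4.72, 6.32 and 4.23 FPKM in the model libraries and 16.4, 17.4 and 8.01 in the pomegranate-high libraries (1.24 ± 0.29, adjusted p = 0.478, and 0.54 without the 3 libraries). Its controls had 5.51, 4.78 and 6.51 FPKM, so the pomegranate-high libraries stood above both other groups. The integrin subunit gene Itgb2 did so too, at 19.5, 15.3 and 8.79 FPKM against 2.71 to 8.73 in the other 6 libraries. The Fc receptor gene Fcgr3a had 3.96, 4.39 and 6.01 FPKM in the controls and 18.9, 13.1 and 10.5 in the pomegranate-high libraries (1.36 ± 0.37 against control, adjusted p = 0.328). Its model libraries had 3.05, 9.70 and 8.69 FPKM, of which replicates 2 and 3 lay above all controls.

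Of 11 macrophage transcription factors 8 were tested, and their values went both ways. Spi1, which encodes PU.1, the lineage factor of myeloid cells, had 5.35, 6.85 and 11.1 FPKM in the controls, 3.33, 9.86 and 8.18 in the model libraries, and 29.5, 21.7 and 12.0 in the pomegranate-high libraries. The latter lay above all others (1.30 ± 0.42 against control, adjusted p = 0.397, and 0.63 without the 3 libraries of high mitochondrial share). Maf, a transcription factor of resident macrophages, had 6.58, 7.24 and 8.36 FPKM in the controls and 1.23, 3.76 and 5.43 in the pomegranate-high libraries (−1.03 ± 0.37, adjusted p = 0.417, and −0.38 without the 3 libraries). None of the 8 passed in any comparison, and their median differences were −0.34 between model and control and 0.14 between pomegranate-high and control. These medians were −0.05 and 0.05 without the 3 libraries. Among ligands, the growth factor gene Csf1 had 1.34, 1.49 and 1.46 FPKM in the controls, 1.14, 1.21 and 1.40 in the model libraries and 2.13, 6.84 and 2.25 in the pomegranate-high libraries (0.82 ± 0.32 against control, adjusted p = 0.435, and 0.42 without the 3 libraries of high mitochondrial share).

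The summed level of monocyte and recruited macrophage genes was highest in pomegranate-high replicates 1 and 2. All 7 tested members had higher values in the pomegranate-high arm than in control (median log2 difference 1.44, 0 passing, 6 at an unadjusted p under 0.05), beside 57.4% of all genes higher and 7.24% higher at that p. Of these, Itgax met the filter of 1 FPKM only through the 3 pomegranate-high libraries (1.29, 3.98 and 1.47 FPKM). Clec7a met it only through pomegranate-high replicates 1 and 2 and model replicate 1. The filter thus set part of these counts in advance. Leaving out the 3 libraries of high mitochondrial share gave 5 higher, with a median of 0.35 and 3 at that p. Gpnmb, a glycoprotein of lipid-laden macrophages, had 7.22, 7.23 and 6.15 FPKM in the controls, 12.6, 15.7 and 10.1 in the model libraries and 88.3, 55.6 and 17.7 in the pomegranate-high libraries. Its 3 groups did not overlap (2.54 ± 0.47 for pomegranate-high against control, adjusted p = 0.263, and 1.25 without the 3 libraries). The galectin gene Lgals3 had 78.5, 90.3 and 10.1 FPKM in the pomegranate-high libraries and 5.18 to 16.9 in the others. Summed over the 10 matched genes, this list stood at 17.7 to 22.8 FPKM in the controls, 22.3 to 39.4 in the model libraries and 34.7 to 220 in the pomegranate-high libraries. Ccr2, Cx3cr1 and Trem2 of this list were below the filter and not tested, and Itgam and Plac8 were not matched. Ccr2 was listed at 0 in 7 of 9 libraries, all 3 pomegranate-high libraries among them, and had 0.216 and 0.195 FPKM in control replicates 1 and 3. Cx3cr1 had 0.184, 0.804 and 1.20 FPKM in the pomegranate-high libraries and 0.0908 to 0.378 in the others. Trem2 had 3.75, 2.76 and 0.0531 FPKM in the pomegranate-high libraries and 0 to 0.317 in the others. A part of blood monocytes in these levels was not tested.

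Lyz2 is also made by granulocytes, and the neutrophil list was highest in pomegranate-high replicate 2, the library with the most Lyz2. Summed over 7 genes it stood at 1.69 to 2.82 FPKM in the controls, 1.17 to 5.23 in the model libraries and 2.17 to 24.2 in the pomegranate-high libraries. S100a9, its one tested member, had 15.3 FPKM in pomegranate-high replicate 2 and 0.138 to 2.89 in the other libraries. Mpo was listed at 0 in 8 of 9 libraries and reached 0.0204 FPKM, and Elane was at 0 in 7. The part of these cells in the level of Lyz2 was not tested. The 3 pan-leukocyte genes summed to 9.43 to 23.2 FPKM in the controls, 11.8 to 21.2 in the model libraries and 23.4 to 58.0 in the pomegranate-high libraries. Among them Ptprc, the gene of CD45, had 4.39, 7.85 and 2.75 FPKM in the pomegranate-high libraries, above the 1.33 to 2.27 of the controls (1.03 ± 0.31, adjusted p = 0.370, and 0.44 without the 3 libraries of high mitochondrial share).

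The sinusoidal endothelium, which shares the sinusoid with Kupffer cells, had lower values in the model arm for 13 of 13 tested markers (median −0.81, 0 passing, 11 at an unadjusted p under 0.05), beside 54.1% of all genes lower and 1.78% lower at that p. All 13 had lower values without model replicate 1 too, with a median of −0.77. Its summed level was 205 to 227 FPKM in the controls, 95.3 to 153 in the model libraries and 141 to 207 in the pomegranate-high libraries. In model replicate 3 the median of these endothelial genes was −1.09 relative to the control mean and that of the macrophage markers −0.45. In pomegranate-high replicate 1 they stood at −0.51 and 1.13. Red blood cell genes, whose products reach macrophages through the uptake of aged cells, had median differences of −0.83 between model and control and 1.42 between pomegranate-high and model. One of them, Hba-a3 of the multi-copy alpha-globin family, passed in the latter, with 4.94, 5.84 and 6.01 FPKM in the model libraries and 29.6, 41.7 and 21.5 in the pomegranate-high libraries (2.23 ± 0.25, adjusted p = 0.0386). It was the 1 gene called in that comparison and passed in 6 of 20 alternatives, with log2 differences of 1.70 to 2.46 and adjusted p from 0.00715 to 0.453. The lowest of these differences was the one without the 3 libraries of high mitochondrial share (adjusted p = 0.248). Of the remaining lists, the 8 hepatocyte markers had a median difference of −0.09 between model and control and −0.01 between pomegranate-high and control. All 8 were lower in the model arm than in control, beside 54.1% of all genes. Without model replicate 1, 5 were higher and 3 lower in that comparison, with a median of 0.14. In the pomegranate-high arm 3 were higher and 5 lower than in control. Albumin, Alb, had 23804, 23429 and 37186 FPKM in the pomegranate-high libraries and 39271 to 45551 in the controls (−0.62 ± 0.30, adjusted p = 0.520). Cps1, an enzyme of the urea cycle, had 286, 289 and 374 FPKM against 381 to 725 (−0.82 ± 0.36, adjusted p = 0.483). For both, all pomegranate-high libraries lay below all controls, as in 3.66% of all genes. Serpina1 (6799, 7417 and 7767 FPKM in the pomegranate-high libraries) and Apoa1 (1072, 863 and 1716) overlapped the controls. Without the 3 libraries of high mitochondrial share the hepatocyte median against control was 0.11, with 5 higher and 3 lower. Alb was lowest in pomegranate-high replicates 1 and 2, where the monocyte and pan-leukocyte genes were highest, and a link between them was not tested. The 10 stellate cell and matrix genes stood at −0.11 and 0.47, the 4 lymphocyte genes at −0.09 and 0.85, the 8 ligands and partners of the markers at −0.12 and 0.48, and the 1 tested cholangiocyte gene at 0.06 and 0.61. Without the 3 libraries of high mitochondrial share the second value was −0.01, 0.47, 0.27 and 0.04 in the same order. Of the 4 lymphocyte genes 3 were higher and 1, Cd4, lower in pomegranate-high against control. No gene of these lists passed. The part of these cell types in the marker levels was not tested.

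**Figure D5:**
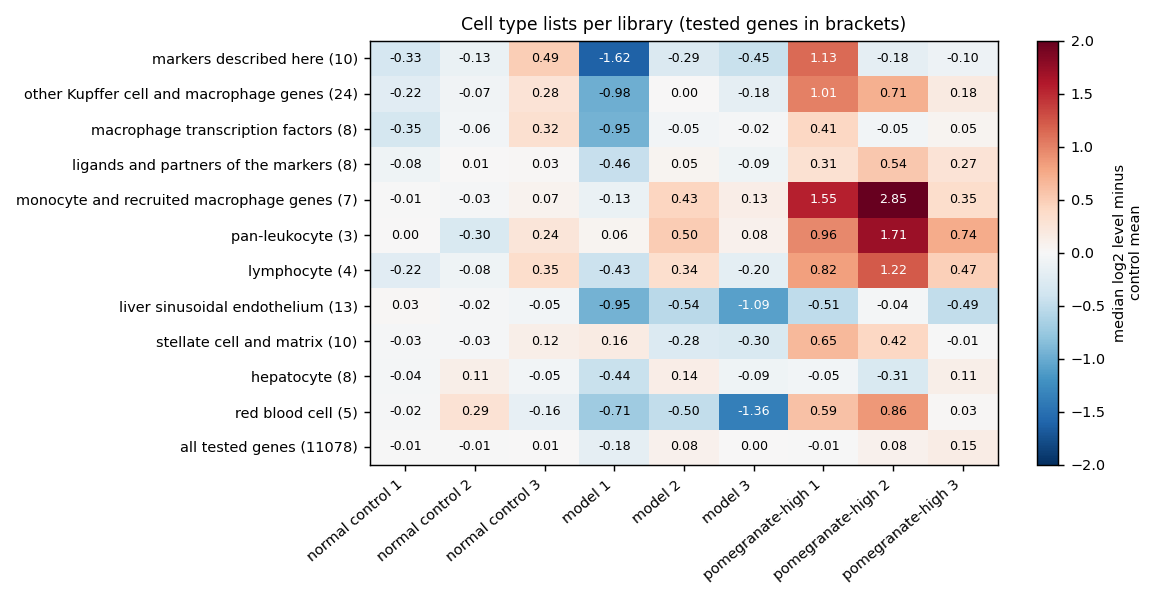
Median log2(FPKM + 1) of each list with at least 3 tested genes, relative to its control mean, in each of the 9 libraries, from blue (lower) to red (higher). The macrophage markers are lowest in model replicate 1 (−1.62) and highest in pomegranate-high replicate 1 (1.13), and genes of monocytes and recruited macrophages are highest in pomegranate-high replicate 2 (2.85).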

How the data were processed

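RNA-seq of 9 rat liver libraries was used. Poly(A) RNA was captured with oligo(dT) beads and primed randomly after fragmentation, with strand marking, per the labels' protocols. The authors deposited FPKM values per gene and library, without pooling replicates. HTSeq 0.6.0, TopHat2, HISAT2, Bowtie2 2.2.3, DESeq and DESeq2 are named without a role in the submitters' processing notes, as is Rnor_6.0. The counting mode, strand included, was not given in sources used here. No other gene of the table overlaps a marker. All 9 columns matched a title, with 0 left unmapped, and any 2 libraries differed in at least 84.7% of values.

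The FPKM steps gave whole reads for 100% of 146433 values (tolerance 0.001 reads), and these summed to at least 99.987% of each total; floors from them cover counting error only. Genes with FPKM of at least 1 in at least 3 libraries were fitted on log2(FPKM + 1), whose pseudocount understates changes of low genes, by limma 3.58.1 (R 4.3.3), with all 9 libraries in 1 fit, an intensity trend and two-sided tests. Scripts were tested on simulated data. Correlations used exact permutations in Python 3.11.15. The markers and the 12 other lists (129 of all 136 symbols matched by name) were chosen with earlier results of these data known. From each list up to 3 genes of smallest p per comparison were eligible to be named, plus the 8 genes most like the markers. Outside this rule, Ccr2, Cx3cr1, Trem2, Mpo and Elane, below the filter, and Itgam and Plac8, unmatched, were named as well. Alternatives were another pseudocount, filter, scaling, weighting and trend, voom, the 2 groups alone, and leaving out libraries. Repeats of the other lists and their named genes without libraries were chosen after seeing the data. The result of 1 gene of these lists is not reported here.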

Additional observations from a re-analysis of the deposited data

How the results depend on the processing

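The markers had 48 or more reads in every library. Over 597 repeats of the markers' log2 differences, counting those that left out a library of the third group, 570 kept direction and side of the threshold, 1 newly passed (Lyz2 against control without pomegranate-high replicate 3, 2.56) and 26 turned direction without passing. Adgre1 was not fitted with a mean FPKM of at least 5. Scaling to TPM shifted the median of all genes by −0.11 in pomegranate-high against control, and quantile normalization by −0.11 in pomegranate-high against model.

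None of the values that turned passed before or after. Cd163 in pomegranate-high against model turned to −0.21 with library quality weights, −0.15 without model replicate 1 and −0.025 without pomegranate-high replicate 3, and ran from −0.15 to 0.51 over single libraries left out. The rest concern pomegranate-high against control. Clec4f turned to −0.10 with TPM, −0.042 with median-of-ratios scaling, −0.067 with quantile normalization, −0.18 with quality weights, −0.073 without the 3 libraries of high mitochondrial share, and −0.54 to 0.55 over single libraries left out. Csf1r turned to −0.087, −0.028, −0.058, −0.0059 and −0.16 in the same order, and ran from −0.20 to 0.18 over single libraries left out. Without the 3 libraries Cd68 was −0.085, C1qb −0.14 and C1qc −0.12. Over single libraries left out Adgre1 ran from −0.060 to 0.49, C1qa from −0.048 to 0.57, C1qb from −0.072 to 0.67 and C1qc from −0.040 to 0.67. The cause of these turns was not tested.

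The number of genes passing was 1 for model against control. It was 0 with a pseudocount of 0.1, no filter, a mean FPKM of at least 5, quantile normalization or voom, 10 with quality weights, 2 without the 3 libraries, and 0 to 1 over single libraries left out. For pomegranate-high against model it was 1, and 0 with no filter, median-of-ratios or quantile scaling, the 2 groups alone, voom or without the 3 libraries. Over single libraries left out it was 0 to 77, the latter without pomegranate-high replicate 3. For pomegranate-high against control it was 2. It was 0 with a pseudocount of 0.1, no filter, a mean FPKM of at least 5, TPM, the 2 groups alone or without the 3 libraries, 1 with median-of-ratios or quantile scaling, no trend or voom, and 6 with quality weights. Over single libraries left out it was 0 to 328, the latter without pomegranate-high replicate 3. The number of marker pairs passing, 28, was 0 without the 2 farthest libraries and 0 without the 3 libraries. Those repeats have fewer libraries and so a larger smallest possible p, and their counts cannot be set directly against 28. It was 30 with group means subtracted in all 9 libraries. No paired analysis was possible because the labels give no replicate numbers that the groups share by design, and replicates were numbered in sample order.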
